A study of Mus musculus with 24 samples.

Results

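Collagens are the main structural proteins of the extracellular matrix. 3 chains wind into a triple helix in which glycine recurs at a fixed step, and the genes are grouped by what the helices build. Fibrillar collagens, with types I and III the most abundant, form the banded fibrils that carry tension in the submucosa of the gut and in the portal tracts of the liver. Type IV collagen forms the sheet-like network of basement membranes under epithelia and around vessels and muscle cells. In the healthy liver sinusoid a classical basement membrane is lacking, and stellate cells are the main collagen producers there, whereas in the colon fibroblasts and smooth muscle cells lay down much of the matrix.

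Probes were taken as collagen probes when the gene name on the array was Col, a number, a and a number with nothing after it. The rule found 40 collagen genes among 27962 gene names, represented by 78 of 41174 probes. For each gene the probe with the highest mean intensity over both dyes served as the main probe. Of the 40 genes, 11 encode fibrillar collagens and 6 encode type IV collagens. A further 9 encode fibril-associated (FACIT) collagens, 4 transmembrane collagens, 3 type VI chains, 3 chains of types VIII and X and 2 multiplexins. Col7a1 and Col28a1 make up the rest.

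The mRNA came from female C57BL/6 mice killed at 12 weeks of age. Every mother had been on HF-low, a high-fat diet poor in selenium and folate, from before mating until weaning. The pups were then given either HF-low again (HF-low-low, n = 6) or HF-suf, the same fat level with sufficient selenium and folate (HF-low-suf, n = 6). Colon and liver of the same 12 mice were hybridized on 24 arrays, so low selenium and folate in early life and the high-fat diet throughout were shared by all groups and no group was on a standard diet. Each array carried the tissue sample in Cy3 against a common reference in Cy5 that was pooled from colon and liver RNA of the mice, without a dye swap. Values are log2 ratios of sample over reference after background correction and loess normalization, and a value of 1 is a 2-fold difference. A probe is called bright here when its Cy3 signal was well above background on at least 6 of the 12 arrays of a tissue. In colon 28 of the 40 main probes were bright, beside 43.9% of all probes, and in liver 20 were, beside 36.9%, although the main probe of a gene was picked for its intensity. The labels name separate mice, so P values measure the spread between mice and arrays.

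Median Cy3 signal was between 3.77 and 7.22 times the local background on the 24 arrays, and between 25.6% and 71.5% of probes were well above background. The labelled tissues matched their markers: 6 of 6 colon epithelial markers were higher in colon and 4 of 4 hepatocyte markers on the array were higher in liver. The arrays of colon HF-low-suf replicate 5 and liver HF-low-suf replicate 4 had a bright reference channel. The liver of HF-low-suf replicate 1 held the highest adipocyte marker level of the 12 livers, a mean log2 ratio over 6 markers of 2.84 against a group median of -0.59. The liver of HF-low-suf replicate 2 held the highest skeletal muscle marker level, at -2.93 against a group median of -4.34. Where a call changed without these arrays, this is said beside the result.

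The glycine repeat can be read directly in some probes. Over the whole array only 3 probes carried at least 5 codons of the form GGN, which encode glycine, at steps of 9 bases, and all 3 were collagen probes. They are shown because they are the collagen repeat itself, with the glycine codons in capitals. The Col5a1 probe lies at chr2:27994034-27996457, the Col5a3 probe at chr9:20655471-20656200 and the Col11a2 probe at chr17:32131401-32131567 of build mm7, each span being longer than its 60 bases, so the probes join pieces that an intron separates.
Col5a1: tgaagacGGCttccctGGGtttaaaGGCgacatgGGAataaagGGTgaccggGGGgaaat
Col5a3: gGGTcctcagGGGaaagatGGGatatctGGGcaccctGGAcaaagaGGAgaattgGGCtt
Col11a2: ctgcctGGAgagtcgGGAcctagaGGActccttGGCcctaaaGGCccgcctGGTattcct
None of the 3 was a main probe. Each was well above background on at most 2 of the 12 arrays of either tissue, and their colon minus liver differences were 0.04 for Col5a1, -0.16 for Col5a3 and -0.17 for Col11a2, all not called.

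The promoters of 4 members that moved the same way between tissues are shown next, taken from the RefSeq table for GRCm38.p6, which held a window for 32 of the 40 genes. A window runs from 250 bases before to 50 bases after a start site and is written along the gene. Col4a1 and Col4a2 stand head to head: their annotated starts lie 21 bases apart on opposite strands and their windows share 78 bases, given in capitals.
Col4a1, chr8:11312777-11313076, minus strand: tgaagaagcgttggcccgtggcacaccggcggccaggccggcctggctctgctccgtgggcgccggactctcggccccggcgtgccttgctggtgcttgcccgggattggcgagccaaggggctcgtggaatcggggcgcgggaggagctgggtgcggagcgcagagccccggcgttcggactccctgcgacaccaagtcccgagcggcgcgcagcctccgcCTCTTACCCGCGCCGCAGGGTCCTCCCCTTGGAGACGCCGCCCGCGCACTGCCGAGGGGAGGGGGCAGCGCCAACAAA
Col4a2, chr8:11312555-11312854, plus strand: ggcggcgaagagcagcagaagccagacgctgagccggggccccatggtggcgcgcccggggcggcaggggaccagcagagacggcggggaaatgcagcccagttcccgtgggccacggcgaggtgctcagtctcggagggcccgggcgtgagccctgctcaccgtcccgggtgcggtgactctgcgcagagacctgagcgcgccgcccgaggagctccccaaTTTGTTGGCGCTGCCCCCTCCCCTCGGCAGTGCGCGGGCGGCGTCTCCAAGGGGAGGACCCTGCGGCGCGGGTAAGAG
For Col1a2 and Col3a1, capitals mark CCAAT or TATAAA, searched on both strands. The 2 motifs do not overlap each other.
Col1a2, chr6:4505368-4505667, plus strand: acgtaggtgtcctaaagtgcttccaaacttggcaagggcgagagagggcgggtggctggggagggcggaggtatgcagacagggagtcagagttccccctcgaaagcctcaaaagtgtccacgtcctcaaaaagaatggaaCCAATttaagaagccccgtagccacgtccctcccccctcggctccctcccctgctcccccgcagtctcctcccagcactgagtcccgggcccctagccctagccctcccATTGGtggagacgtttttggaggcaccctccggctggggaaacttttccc
Col3a1, chr1:45311288-45311587, plus strand: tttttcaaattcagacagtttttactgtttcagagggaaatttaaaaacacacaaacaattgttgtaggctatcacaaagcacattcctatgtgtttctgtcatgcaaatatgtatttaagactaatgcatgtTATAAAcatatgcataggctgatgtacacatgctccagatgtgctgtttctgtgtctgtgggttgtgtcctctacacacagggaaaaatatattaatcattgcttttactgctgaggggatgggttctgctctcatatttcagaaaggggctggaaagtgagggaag
The type IV windows were 74% and 73.7% G and C, the Col1a2 window 61% and the Col3a1 window 37.7%. CCAAT was present in 34.3% of the 35 collagen windows and in 37.4% of all 32851 windows, and TATAAA in 14.3% and 13.6%.

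The first comparison asked how the collagens differed between colon and liver. Of the 40 genes, 14 were higher in colon, 6 were higher in liver and 20 were not called, at an adjusted P under 0.05 and a fold change over 1.5 in limma with the mouse as a random block. Over all probes, 12.2% were higher in colon and 11.4% higher in liver, so the share higher in colon was above the background and the share higher in liver close to it. Main probes were picked for brightness, and 28 of the 40 were bright in colon or liver. Among these 28, 14 were higher in colon and 5 higher in liver, so 19 of 28 were called beside 45.6% of all bright probes, with 24.5% of those higher in colon and 21.1% higher in liver. With arrays centred on their median in place of loess, 15 genes were higher in colon and 3 higher in liver. The median difference, colon minus liver, was 0.09 over the 40 genes and -0.02 over all probes.

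**Figure D1:**
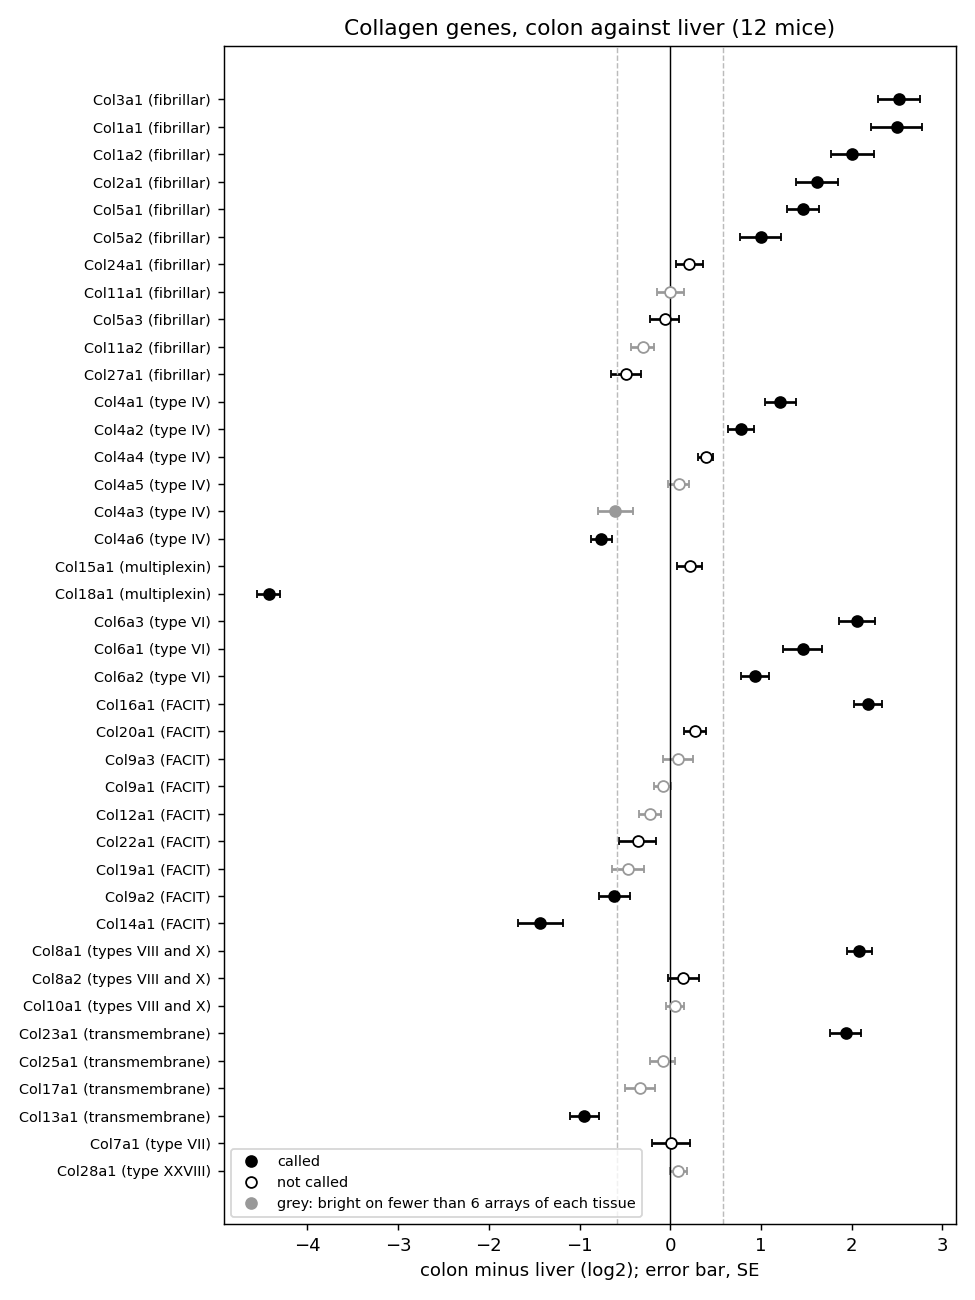
Colon minus liver difference in log2 for the 40 collagen genes, grouped by class, with standard errors; filled points were called, open points were not, grey points were bright in neither tissue, and dashed lines mark a 1.5-fold difference. The 14 genes called higher in colon lie to the right, up to 2.53 for Col3a1, and Col18a1 at -4.43 lies farthest to the left.

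Of the 11 fibrillar collagens, 6 were higher in colon by their main probes, none was higher in liver and 5 were not called, with a median difference of 0.996. The 6 include Col2a1, for which another probe was called higher in liver, and with that probe the counts would be 5 and 1. Col3a1, the type III chain of pliable tissues, ranged from -2.04 to -0.12 with a median of -1.21 in colon and from -4.37 to -2.08 with a median of -3.83 in liver. All 12 colon arrays lay above all 12 liver arrays, as they did for 6.49% of all probes. The difference was 2.53 ± 0.23 (SE), a 5.76-fold higher level in colon (adjusted P = 5.77e-10, limma).

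Col1a1 and Col1a2 encode the chains of type I collagen. In colon Col1a1 ranged from -3.77 to -1.49 with a median of -2.32, and in liver from -6.14 to -3.24 with a median of -5.31. The tissues overlapped only through the liver of HF-low-low replicate 2, which at -3.24 was the highest liver, and the colon was the higher of the 2 tissues in 12 of 12 mice. The difference was 2.50 ± 0.28 (adjusted P = 2.71e-08, limma). Another Col1a1 probe, well above background on 12 colon and 8 liver arrays, had a difference of 0.18 ± 0.19 and was not called (adjusted P = 0.532, limma), so the size of the difference depends on the probe. Col1a2 ranged from -2.52 to -0.07 in colon and from -3.93 to -1.63 in liver, with medians of -1.15 and -3.12. It was 4.03-fold higher in colon (2.01 ± 0.24, adjusted P = 8.54e-08, limma).

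The type V chains, which regulate the diameter of type I fibrils, did not move as a unit. Col5a1 ranged from -0.56 to 0.95 in colon and from -1.99 to -0.57 in liver, without overlap, and was 2.76-fold higher in colon (1.46 ± 0.18, adjusted P = 8.28e-08, limma). Col5a2 ranged from -1.56 to -0.16 in colon, while all 12 livers were too dim for its probe. The level in colon was therefore at least 1.79-fold higher than in liver, with the bright mean set against the lowest signal well above background on each liver array, per channel and open to dye bias (measured means -0.91 and -1.90, adjusted P = 0.000569, limma). Col5a3 was bright on all 24 arrays and had a difference of -0.06 ± 0.16, so that it was not called (adjusted P = 0.821, limma).

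The cartilage collagen gene Col2a1 was also called. Its main probe ranged from -1.60 to -0.09 in colon and from -3.37 to -1.26 in liver and was 3.07-fold higher in colon (1.62 ± 0.23, adjusted P = 1.91e-06, limma). Another Col2a1 probe, which shares 40 of its bases with the main probe and was well above background on 9 colon and 11 liver arrays, was 0.69 ± 0.15 lower in colon (adjusted P = 0.000491, limma), so the direction for this gene is uncertain. The rest of the class was not called. Col11a1 and Col11a2, the other cartilage fibril chains, had differences of 0.003 and -0.30 and were well above background on at most 2 arrays of a tissue. Col24a1 had a difference of 0.21 and Col27a1 of -0.49, and Col27a1 was past the adjusted threshold but not past 1.5-fold (adjusted P = 0.0204, limma). Without the livers of HF-low-suf replicates 1 and 2 Col27a1 was called higher in liver, at -0.62.

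**Figure D2:**
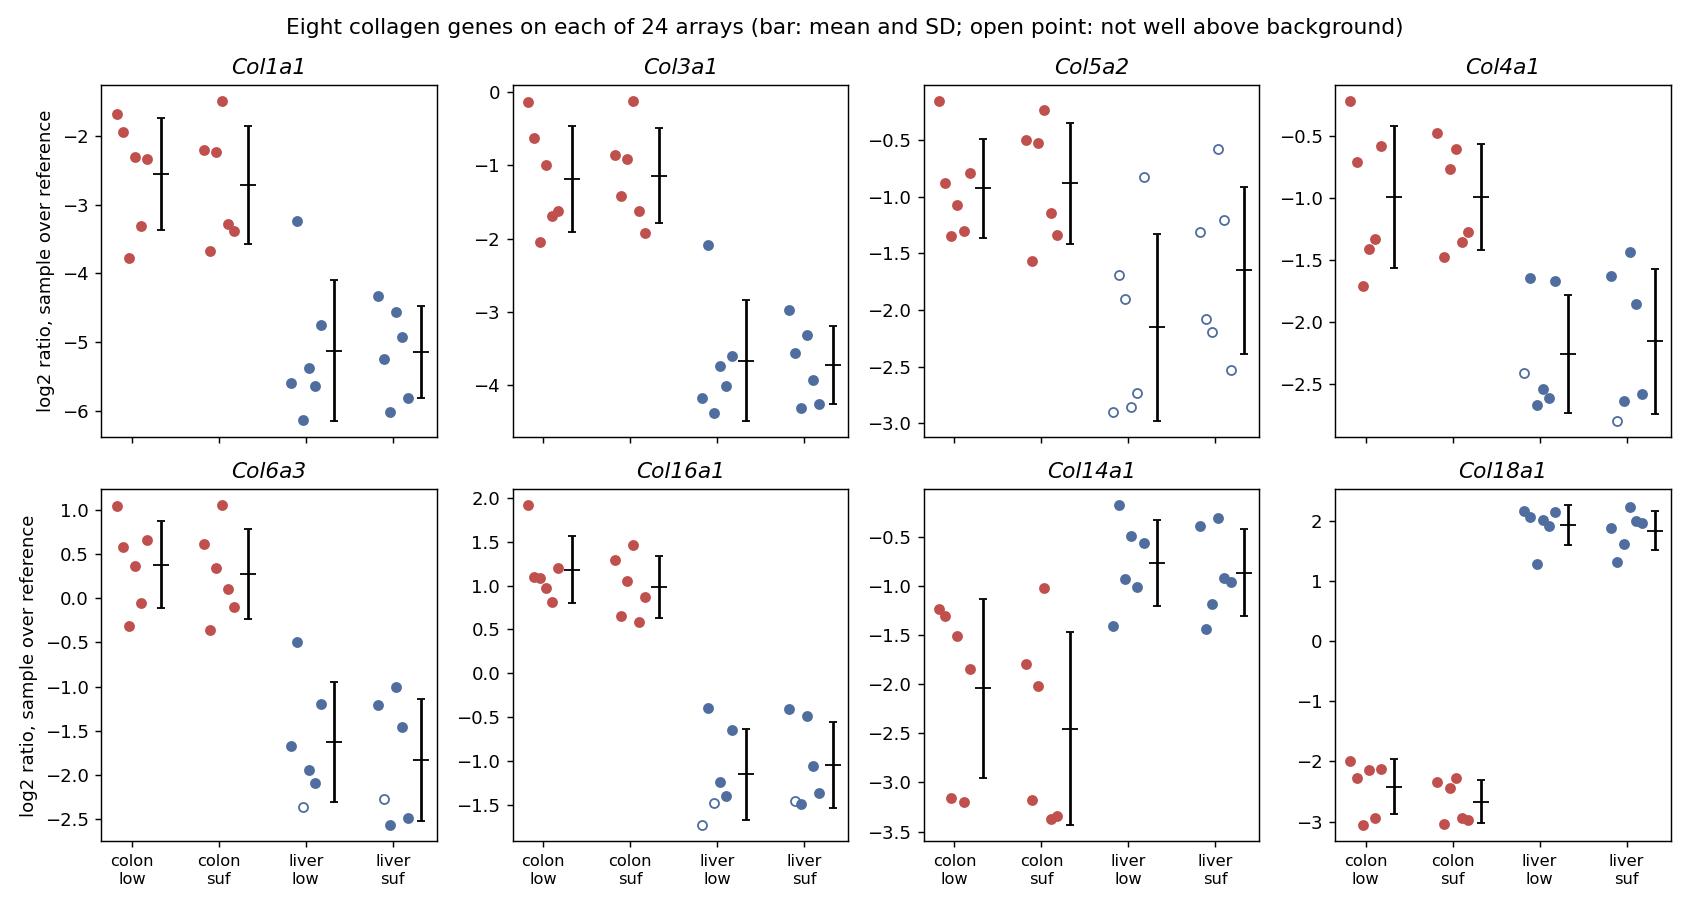
Log2 ratio of sample over reference on each array for 8 collagen genes in the 4 groups, n = 6 each; red points are colon, blue points liver, open points were not well above background, and bars give mean and SD. Colon lies above liver in 6 panels, while in the Col14a1 and Col18a1 panels liver lies higher, without overlap for Col18a1.

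The main probe of Col1a1 stood apart in its level against the reference, unlike that of Col1a2, which reached -0.07 in colon. Col1a1 was below -1 on all 24 arrays, with a median of -3.72, although the labels describe the reference as a pool of colon and liver RNA. The only other member below -1 on every array was Col22a1, a collagen of muscle-tendon junctions, with a median of -2.87. Over all probes 307 (0.746%) were below -1 on every array and 9 were above 1 on every array. All 6 skeletal muscle markers were among those below, with medians between -5.46 for Tnnt3 and -4.22 for Myh1, and both collagens and all 6 markers were well above background in the reference channel on 24 of 24 arrays. What the reference held beside these tissues was not tested. The same reference stands against both tissues, but its signal entered the choice of main probe, made by intensity over both dyes. It also entered the loess normalization.

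Of the 6 type IV collagens, 2 were higher in colon, 2 were higher in liver and 2 were not called by their main probes, and the median difference was 0.24. The calls higher in liver, Col4a3 and Col4a6, were both lost with median centring and with the mean of all probes of a gene, where Col4a6 turned to 0.51. Col4a1 and Col4a2, whose chains assemble into the network found in nearly all basement membranes, were both higher in colon. Col4a1 ranged from -1.71 to -0.21 in colon and from -2.80 to -1.44 in liver, with medians of -1.02 and -2.47. It was 2.32-fold higher in colon (1.22 ± 0.18, adjusted P = 1.8e-06, limma). Col4a2 ranged from -1.33 to -0.08 in colon and from -1.85 to -0.87 in liver, and was 1.72-fold higher in colon (0.78 ± 0.14, adjusted P = 5.87e-05, limma). For both genes the groups overlapped over 12 against 12 arrays, and the colon was higher in 12 of 12 mice. The second probe of Col4a1 was also called higher in colon (0.78 ± 0.19), and the second probe of Col4a2 had a difference of 0.51 ± 0.18, below 1.5-fold.

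The chains of restricted basement membranes, found for example in the kidney, gave no common direction. Col4a4 was bright on all 24 arrays and varied little, from -0.87 to -0.50 in colon and from -1.37 to -0.70 in liver. Its difference of 0.39 ± 0.08 was past the adjusted threshold but below 1.5-fold (adjusted P = 0.000218, limma). Another Col4a4 probe went the other way at -1.20 ± 0.26 and was called higher in liver, although it was not well above background in either tissue, so no fold is given for it. Col4a6 was higher in liver by its main probe, which ranged from -0.22 to 0.47 in colon and from 0.32 to 1.35 in liver (-0.76 ± 0.11, adjusted P = 3.89e-06, limma). Another Col4a6 probe, well above background on all colon arrays and on none from liver, was at least 2.47-fold higher in colon (measured means 1.15 and -0.55, adjusted P = 7.02e-08, limma), so these probes gave opposite calls. Col4a3 was called higher in liver (-0.61 ± 0.19, adjusted P = 0.0132, limma), yet its probe was well above background on 4 of 12 colon arrays and in none of the livers. The call was lost, among other settings, without the 2 arrays with a bright reference. No fold is given for it, since the bound did not reach 1, and its sign turned with the Feature Extraction signals (0.16) and with the Cy3 channel alone (0.03). Col4a5, next to Col4a6 on the X chromosome, had a difference of 0.09 ± 0.11 and was well above background on 4 colon arrays and no liver array.

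Set side by side, the fibrillar class had a median difference of 0.996 and the type IV class of 0.24, beside -0.02 over all probes. In single mice the fibrillar median ranged from 0.08 to 2.28 and the type IV median from -0.17 to 0.69. The fibrillar median was the larger in 11 of 12 mice. The 3 type VI chains had a median between 0.67 and 2.72 in the same mice. This order rested on the choice of probe: when all probes of a gene were averaged, dim ones included, the fibrillar median was 0.25 and the class difference went from 0.75 to -0.05. With bright main probes only, the medians were 1.46 over 9 fibrillar genes and 0.59 over 4 type IV genes. These are counts and medians over genes, and no test was made of the difference between classes.

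**Figure D3:**
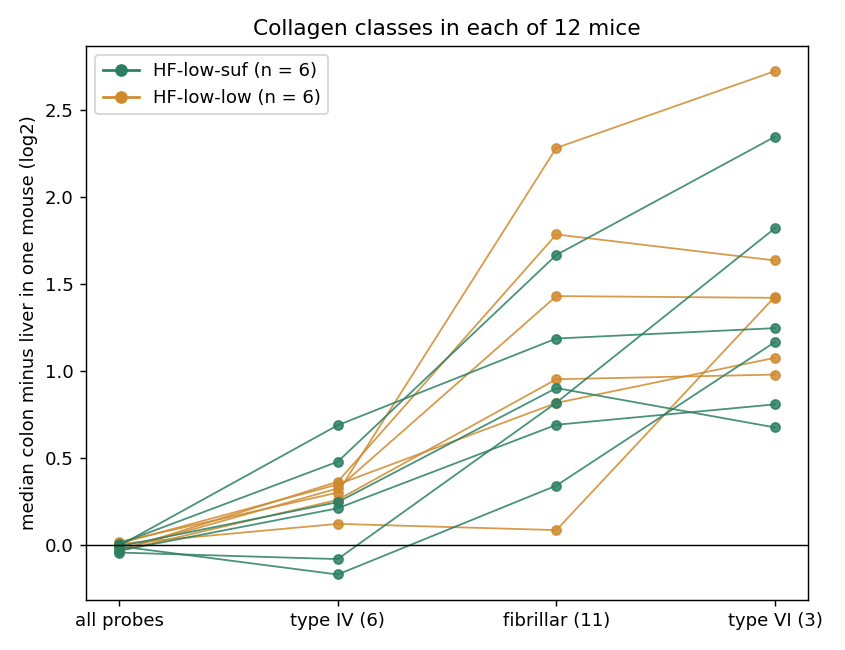
Median colon minus liver difference in log2 within each of 12 mice, over all probes, the 6 type IV, the 11 fibrillar and the 3 type VI genes; each line is 1 mouse, coloured by diet (n = 6 each). Medians over all probes lie within 0.05 of 0, and the fibrillar median exceeds the type IV median in 11 of the 12 mice.

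Col18a1 showed the largest difference of the 40 genes and the only one with all liver arrays above all colon arrays, as was so for 5.97% of all probes. It encodes a basement membrane proteoglycan whose C-terminal fragment is endostatin, an inhibitor of vessel growth. The main probe, at chr10:76707663-76707722 of mm7, ranged from -3.063 to -1.998 with a median of -2.39 in colon and from 1.29 to 2.23 with a median of 1.98 in liver. The level in liver was 21.5-fold higher (-4.43 ± 0.13, adjusted P = 1.28e-20, limma), and the second probe gave -3.89 ± 0.13. Col15a1, the other multiplexin and a neighbour of basement membranes in muscle and vessel walls, had a difference of 0.22 ± 0.13 and was not called (adjusted P = 0.244, limma).

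All 3 type VI chains, which form beaded filaments around cells, were higher in colon. Col6a3 ranged from -0.36 to 1.05 in colon and from -2.57 to -0.49 in liver, without overlap, and was 4.16-fold higher in colon (2.06 ± 0.20, adjusted P = 1.83e-09, limma). Col6a1 ranged from -0.84 to 0.85 in colon and from -2.27 to -0.32 in liver and was 2.75-fold higher (1.46 ± 0.22, adjusted P = 2.54e-06, limma). Col6a2 was 1.91-fold higher (0.93 ± 0.15, adjusted P = 9.93e-06, limma), with its probe well above background on 12 colon and 2 liver arrays. Each of the 3 was higher in colon in 12 of 12 mice.

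The FACIT collagens, which sit on the surface of fibrils, had 1 gene higher in colon, 2 higher in liver and 6 not called. Col16a1 ranged from 0.58 to 1.91 in colon and from -1.73 to -0.40 in liver, without overlap, and was 4.53-fold higher in colon (2.18 ± 0.16, adjusted P = 4.55e-12, limma). Col14a1, which binds type I fibrils, went the other way. It ranged from -3.37 to -1.02 in colon and from -1.43 to -0.18 in liver, and 5 colon arrays lay between -3.37 and -3.16 while the other 7 lay between -2.02 and -1.02, with both diets in each set. The 5 were also the lowest colons for the fibroblast marker mean and for Col1a1. The level in liver was 2.70-fold higher (-1.43 ± 0.25, adjusted P = 2.42e-05, limma). Col9a2 was higher in liver (-0.62 ± 0.17, adjusted P = 0.00437, limma), and this call was lost when HF-low-low replicate 1, 3 or 4 or HF-low-suf replicate 1 or 3 was left out. Col20a1 and Col22a1 were bright in colon alone and had differences of 0.27 and -0.36, which were not called.

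Of the remaining classes, Col8a1, a short-chain collagen of vessel walls, was 4.24-fold higher in colon (2.08 ± 0.14, adjusted P = 9.18e-13, limma). It ranged from 0.40 to 1.37 in colon and from -1.89 to -0.59 in liver. Its partner chain Col8a2 had a difference of 0.14 ± 0.17 and was not called. The transmembrane collagen gene Col23a1 was measured on 11 liver arrays after removal of an outlier spot, and its probe was too dim on all 11. It was at least 2.41-fold higher in colon (measured means 1.54 and -0.40, adjusted P = 4.1e-10, limma), without overlap. Col13a1, another transmembrane collagen, was higher in liver (-0.95 ± 0.16, adjusted P = 2.13e-05, limma), and its second, dim probe had a difference of -0.08. Col7a1, which forms the anchoring fibrils under epithelia, had a difference of 0.01 ± 0.21. The 5 genes Col10a1, Col12a1, Col17a1, Col19a1 and Col28a1 had main probes that were not well above background on any array.

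For 12 genes both tissues were dim, so absence of a call there is limited by signal. Over all 78 collagen probes, 19 were higher in colon, 11 were higher in liver and 48 were not called. The array files give positions but no exon or untranslated region for a probe, so which transcript each probe reads is not given in the sources used here.

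Genes that make, cut, bind and degrade collagen were described by lists of 72 measured genes. Of these, 27 were higher in colon, 8 higher in liver and 37 not called, beside 12.2% and 11.4% of all probes and 24.5% and 21.1% of bright probes. Among those acting in the endoplasmic reticulum, 2 of 16 were higher in colon and 3 higher in liver, which is near the shares of all probes. Serpinh1, the chaperone HSP47 that binds the procollagen helix, ranged from -1.55 to 0.23 in colon and from -4.03 to -1.69 in liver. It was 5.74-fold higher in colon (2.52 ± 0.20, adjusted P = 2.23e-11, limma). Plod1, a lysyl hydroxylase, was 1.88-fold higher in liver, measured on 11 liver arrays (-0.91 ± 0.16, adjusted P = 3.32e-05, limma), and this call was lost with median centring (-0.52).

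Among the enzymes of propeptide removal and cross-linking, 3 of 12 were higher in colon and 1 higher in liver. Bmp1, the C-proteinase of fibrillar procollagens, ranged from -1.16 to -0.12 in colon and from 0.59 to 1.46 in liver and was 3.85-fold higher in liver (-1.94 ± 0.10, adjusted P = 8.07e-15, limma). Loxl2, a lysyl oxidase that cross-links chains, was 2.30-fold higher in colon (1.201 ± 0.17, adjusted P = 1.22e-06, limma). In turnover, 3 of 12 genes were higher in colon and 1 in liver. The extremes were both inhibitors of metalloproteinases. Timp2 was 6.01-fold higher in colon (2.59 ± 0.22, adjusted P = 1.47e-10, limma) and Timp1 was 3.11-fold higher in liver (-1.64 ± 0.10, adjusted P = 3.63e-13, limma).

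Of 9 receptors, 5 were higher in colon and 1 in liver. Ddr1, a collagen-activated receptor kinase of epithelia, ranged from 0.34 to 1.27 in colon and from -4.24 to -2.12 in liver, a 17.6-fold higher level in colon (4.14 ± 0.23, adjusted P = 1.74e-14, limma). Lair1, an inhibitory collagen receptor of immune cells, was higher in liver (-0.64 ± 0.18, adjusted P = 0.00464, limma). That call was lost without the livers of HF-low-suf replicates 1 and 2 (-0.57), without HF-low-low replicate 3 or 4 (-0.58 and -0.53), with median centring (-0.34) and with the mean of all its probes (-0.39).

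Of 10 fibril partners, 5 were higher in colon and 2 in liver. Postn, periostin, was 7.82-fold higher in colon with 11 liver arrays in the fit (2.97 ± 0.13, adjusted P = 3.94e-16, limma), while Fn1, the fibronectin that hepatocytes also secrete into plasma, was 7.61-fold higher in liver (-2.93 ± 0.17, adjusted P = 9.15e-14, limma). Of the 13 basement membrane partners measured, 9 were higher in colon and none was higher in liver, and 4 were not called. Lamb3, a chain of the epithelial laminin, was 4.71-fold higher in colon (2.24 ± 0.12, adjusted P = 1.91e-14, limma). Lama3, its partner chain, was called higher in colon on a probe too dim in every liver, so no fold is given (measured means 0.07 and -0.54, adjusted P = 0.000173, limma). Its measured difference of 0.61 fell below 1.5-fold, and the call was lost, without HF-low-low replicate 1, 4 or 5 or HF-low-suf replicate 3 or 6 (0.54 to 0.58) and with the mean of all its probes (0.39).

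Markers of cells that could hold collagen transcripts differed between the tissues too. As a background, 12.2% of all probes were called higher in colon and 11.4% higher in liver. Among bright probes the shares were 24.5% and 21.1%. Of 9 smooth muscle markers, 8 were higher in colon, and the mean log2 ratio of the list ranged from 0.18 to 0.85 on the colon arrays and from -3.42 to -1.87 on the liver arrays. Of 8 fibroblast markers, 4 were higher in colon and 4 were not called, with list means from -1.11 to -0.09 in colon and from -1.68 to -0.64 in liver. All 6 adipocyte markers were higher in colon. Of 7 endothelial markers, 5 were higher in liver, and among hepatic stellate cell markers Lrat and Reln were higher in liver, Des was higher in colon, and Hand2 and Ngfr were not called. The part of these cells in the collagen differences was not tested, and in whole tissue more cells of a type cannot be told apart from more mRNA per cell.

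Whether chains of 1 collagen varied together between mice was then examined within each tissue. The mice of a tissue were parted at the largest gap in the fibroblast marker mean, a cut that yields a lower and a higher set in any data. In colon the fibroblast marker mean lay between -1.11 and -0.79 in 5 mice (HF-low-low replicates 3 and 5, HF-low-suf replicates 2, 5 and 6) and between -0.35 and -0.09 in the other 7, with 4 of the 7 on HF-low-low. The same 5 colons held the 5 lowest values of Col1a1 (-3.77 to -3.28, the others -2.34 to -1.49) and of Col14a1. In liver the marker mean lay between -1.68 and -1.36 in 6 mice and between -0.90 and -0.64 in the other 6. Col1a1 ranged from -6.14 to -5.37 in the first 6 livers and from -5.24 to -3.24 in the others. Col1a2 did not overlap between the sets in either tissue. The liver sets overlapped for Col3a1 (-4.37 to -3.73 against -3.93 to -2.08), Col4a1 (-2.66 to -2.41 against -2.80 to -1.44) and Col14a1. The colon sets overlapped for Col3a1 and Col4a1. The part of fibroblasts in these sets was not tested. For all 12 mice together, only the number of chain pairs that passed is given, with the dependence on processing.

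Correlations were computed within each set of at least 6 mice, a choice made after seeing the data, for the pairs bright in both genes. Of 14 relations, 13 were positive, 5 passed an adjusted P of 0.05 by Pearson r and 1 of these by Spearman rho as well, in exact permutation tests whose smallest P is 0.000198 for 7 mice and 0.00139 for 6. The pair that passed both was Col1a1 and Col3a1, whose chains mix in 1 fibril, in the 7 colons (r 0.91, exact permutation P = 0.000198, adjusted 0.00278; rho 1, adjusted 0.00556). Without the 2 colons farthest from the median r was 0.76. In liver the same pair had r of 0.91 in the lower set (rho 0.94, exact permutation P = 0.00694, adjusted 0.0324) and 0.94 in the higher set (rho 0.83, exact permutation P = 0.0139, adjusted 0.0439).

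For Col1a1 and Col1a2, which share the type I helix, r was 0.76 in the 7 colons (rho 0.86, exact permutation P = 0.0476, adjusted 0.083). It was 0.85 in the lower livers (rho 0.83, exact permutation P = 0.0319, adjusted 0.0722) and 0.96 in the higher livers (rho 0.83, exact permutation P = 0.00556, adjusted 0.0324). Only the last of these passed. Col4a1 and Col4a2, the pair with the shared promoter stretch shown above, had r of 0.90 in the 7 colons (rho 0.79, exact permutation P = 0.0157, adjusted 0.0439), which fell to 0.48 without the 2 farthest mice. In liver r was 0.80 in the lower set (rho 0.60, exact permutation P = 0.0597, adjusted 0.0836) and 0.93 in the higher set (rho 0.77, exact permutation P = 0.0361, adjusted 0.0722).

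The type V and type VI pairs did not pass. Col5a1 and Col5a2 had r of 0.41 in the 7 colons (rho 0.25, exact permutation P = 0.362, adjusted 0.39). Col6a1 and Col6a2 had r of 0.78 there (rho 0.54, exact permutation P = 0.0534, adjusted 0.083), and Col6a1 and Col6a3 had r of 0.70 (rho 0.86, exact permutation P = 0.0786, adjusted 0.1). In liver Col6a1 and Col6a3 had r of -0.31 in the lower set (rho 0.09, exact permutation P = 0.599, adjusted 0.599) and 0.73 in the higher set (rho 0.89, exact permutation P = 0.0875, adjusted 0.102). As a background, between 0.227% of bright probes, for Col1a1 and Col3a1 in colon, and 63.2%, for Col6a1 and Col6a3 in the lower livers, had a higher r with the first gene than its partner had.

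**Figure D4:**
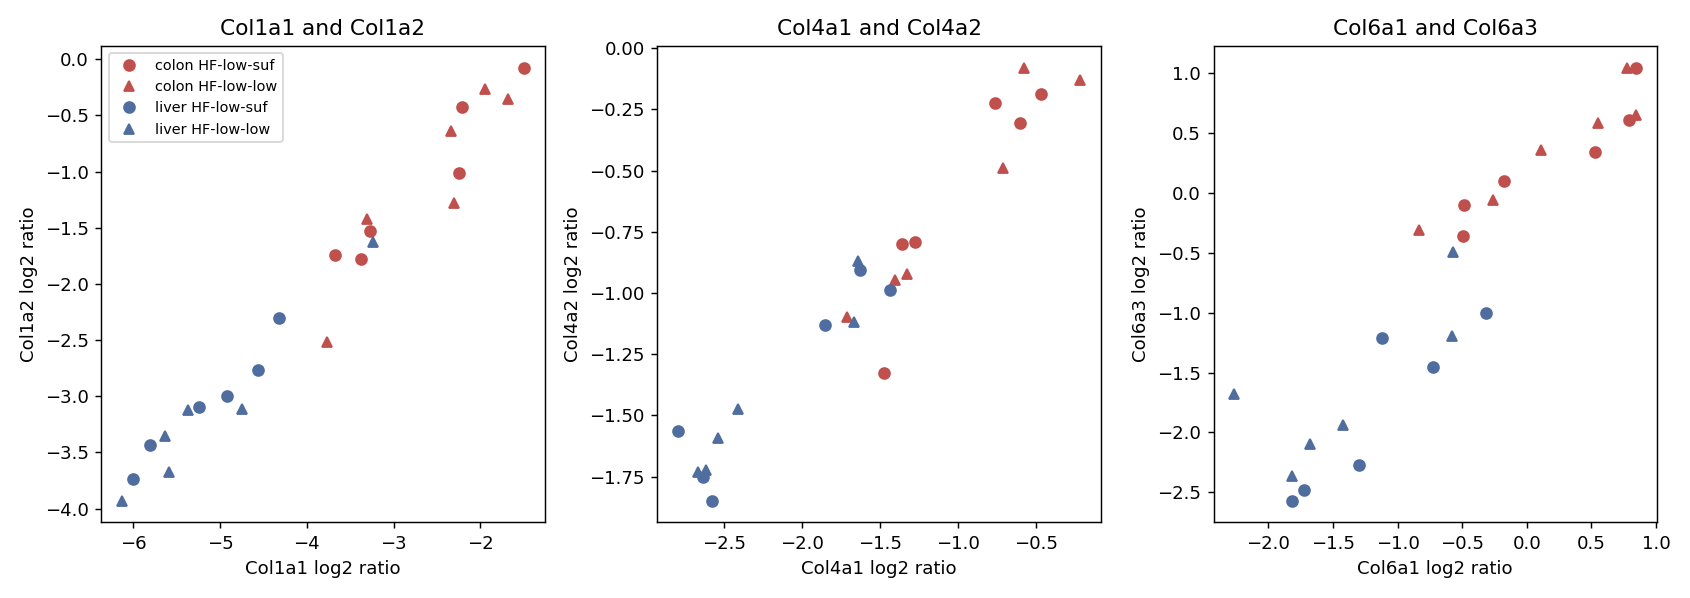
Log2 ratios of 3 pairs of chains plotted against each other on the arrays of 12 mice; red is colon, blue is liver, circles are HF-low-suf and triangles HF-low-low. In the Col1a1 and Col1a2 panel 5 colons lie apart at Col1a1 ratios from -3.77 to -3.28 and the other 7 from -2.34 to -1.49, and both diets lie in each set.

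The second question of the design was whether post-weaning selenium and folate changed the mRNA abundance of collagens. Differences are HF-low-suf minus HF-low-low as the dyes in the labels give them. The study uses the same convention, positive where supplementation raised a gene, yet most genes it lists in each tissue are lower. Most probes called here were higher, and the reason for the opposite directions was not tested. In colon none of the 40 genes was called at an unadjusted P under 0.01 and a fold change over 1.5 in limma, beside 0.168% of all probes (0.16% upward and 0.00729% downward), and none of the probes on the array passed an adjusted P of 0.05. At an unadjusted P under 0.05, 1 of the 40 genes passed, beside 2.98% of all probes. The differences ranged from -0.41 to 0.62 with a median of -0.06, and 12 of 40 were above 0. The 95% interval lay within 1.5-fold for 21 genes and within 2-fold for 38.

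The 3 smallest P values in colon belonged to Col17a1, Col10a1 and Col5a3. Col17a1, a transmembrane collagen of hemidesmosomes, ranged from -2.40 to -0.35 with a median of -0.84 in HF-low-low and from -0.75 to -0.13 with a median of -0.45 in HF-low-suf. The difference was 0.62 ± 0.27 (unadjusted P = 0.0334, adjusted P = 0.9999, limma; exact permutation P = 0.0325), higher in 5 of 6 slides. Its probe was not well above background on any array of either tissue. Col10a1, also dim on every array, had a difference of -0.28 ± 0.15 (unadjusted P = 0.0855, limma; exact permutation P = 0.0758). Col5a3 ranged from -0.79 to 0.23 in HF-low-low and from -0.98 to -0.28 in HF-low-suf, a difference of -0.33 ± 0.19 (unadjusted P = 0.114, limma; exact permutation P = 0.145).

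In liver, too, none of the 40 genes was called, beside 0.117% of all probes (0.0971% upward and 0.0194% downward). At an unadjusted P under 0.05 none of the 40 passed, beside 2.13% of all probes, and none of the probes on the array passed an adjusted P of 0.05. The differences ranged from -0.27 to 0.50 with a median of 0.06, and 25 of 40 were above 0. The 95% interval lay within 1.5-fold for 12 genes and within 2-fold for 39. Col15a1 had the smallest P, with -0.66 to 0.27 in HF-low-low and -0.05 to 0.51 in HF-low-suf (0.24 ± 0.16, unadjusted P = 0.16, limma; exact permutation P = 0.152). Col5a2 followed with 0.50 ± 0.39 (unadjusted P = 0.218, limma; exact permutation P = 0.281) on a probe dim in every liver, and Col17a1 with -0.27 ± 0.21 (unadjusted P = 0.224, limma; exact permutation P = 0.258).

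For the abundant chains the intervals were wide. The difference of Col1a1 was -0.15 in colon, with a 95% interval from -0.99 to 0.68, and -0.02 in liver, from -0.95 to 0.90. For Col3a1 it was 0.04 in colon, from -0.66 to 0.75, and -0.06 in liver, from -0.81 to 0.69. For Col4a1 it was -0.001 in colon, from -0.54 to 0.54, and 0.10 in liver, from -0.49 to 0.69. Col18a1, the gene that separated the tissues most, had -0.24 in colon, from -0.70 to 0.21, and -0.10 in liver, from -0.49 to 0.30. All 8 intervals lay within 2-fold, and those of Col4a1 in colon and Col18a1 in liver also lay within 1.5-fold.

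**Figure D5:**
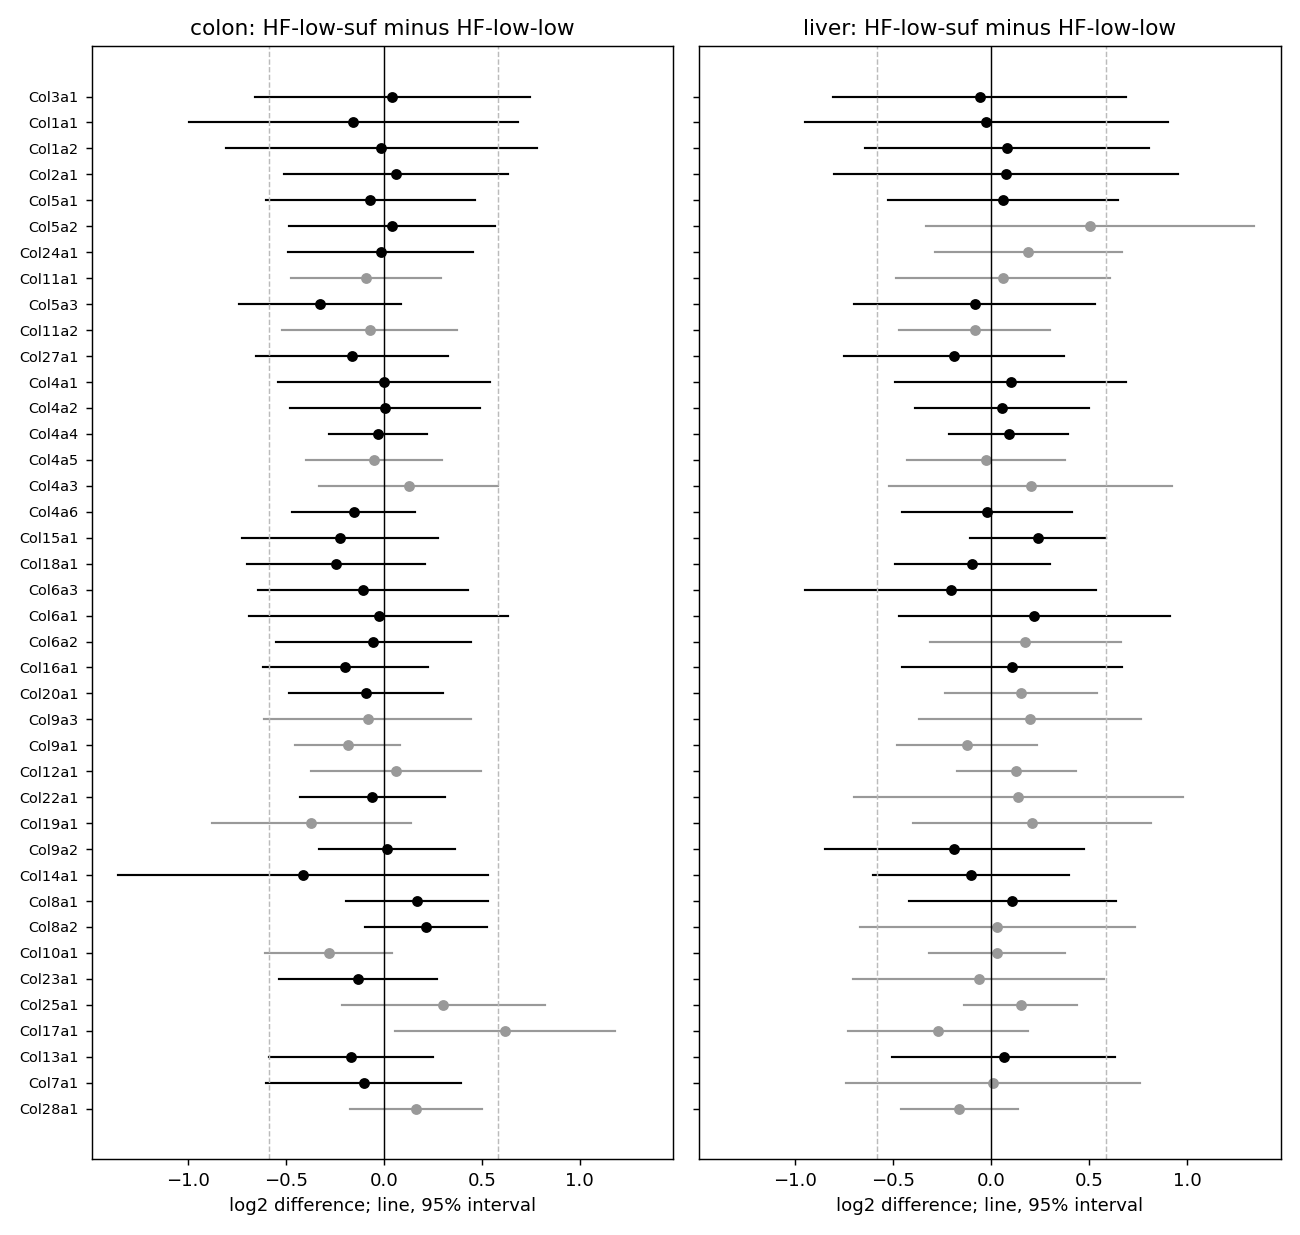
HF-low-suf minus HF-low-low difference in log2 for the 40 collagen genes in colon and in liver, with 95% intervals; black genes were bright in that tissue, grey ones were not, and dashed lines mark 1.5-fold. In liver every interval includes 0, and in colon every interval but that of Col17a1, at 0.62.

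The diet difference was also compared between the tissues. None of the 40 genes was called, beside 1.25% of all probes, and 1 passed an unadjusted P of 0.05, beside 6.43%. That gene was Col17a1, whose diet difference in colon exceeded that in liver by 0.89 ± 0.33 (unadjusted P = 0.0131, adjusted P = 0.649, limma), again on a probe dim on all 24 arrays. Of the 72 genes acting on collagen, 1 was called for diet: Loxl3, a lysyl oxidase, in liver. It ranged from -0.96 to -0.03 in HF-low-low and from -0.03 to 1.11 in HF-low-suf, 0.85 ± 0.22 higher (unadjusted P = 0.00175, limma, with no probe past the adjusted threshold), with its probe well above background on 1 of 12 livers. None of the 72 was called in colon. The study also lists Loxl3 among its differentially expressed liver genes, but as lower with supplementation, the opposite direction.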

How the data were processed

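Colon and liver RNA of 12 mice was hybridized on 24 two-colour Agilent arrays. The deposited intensity values were extracted by the authors from scanned images with Feature Extraction 9.5.3.1, per the file headers, whose probe positions are on mm7. The submitters' processing notes name limma. For the values reported here, mean signals were background-corrected (normexp, offset 50) and loess-normalized within each array in limma 3.58.1 (R 4.3.3, statmod 1.5.0). Control and outlier spots had weight 0, and spots of 1 probe were averaged, which left 41174 probes. The number of arrays limits the precision.

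Tissues and the diet difference between tissues were fitted with limma over 24 arrays as 4 group means with the mouse as a random block (consensus correlation 0.158). Tissue differences were called at a Benjamini-Hochberg adjusted P under 0.05 and a fold change over 1.5. Diets were fitted with limma on the 12 arrays of a tissue and called, as in the study's methods, at an unadjusted P under 0.01 and a fold change over 1.5. Correlations were computed within sets of mice parted at the largest gap in the fibroblast marker mean, with exact permutation tests adjusted over 14 relations. Exact permutation tests of single probes were two-sided over 924 assignments. The same mice gave both tissues, which pairs the tissues. Each of 6 slides held 1 array of each group and 2 scan days held 3 slides each. Between diets, r of the deviations of same-slide arrays ranged from -0.34 to 0.44 in colon, with a mean of 0.098. In liver it ranged from -0.57 to 0.64, with a mean of -0.036.

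Named with values were all fibrillar and type IV genes, other collagens bright in a tissue, the 3 smallest diet P values per tissue, and for each pathway role the extreme called genes. The collagens and all gene lists were chosen with earlier results of these data known. The tests were tested on simulated data. Gene names are those of the array design. 1 marker gene is not reported here. Alternatives changed the background correction, normalization, signal source, probe choice, filter, block, scan day and arrays used. Figures were drawn with matplotlib 3.10.9.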

Additional observations from a re-analysis of the deposited data

Results flagged for a closer look

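Among 188 groups of 6 arrays examined for the named genes, 14 held an array that lay far from the others, by a criterion set at its 95% critical value, which marks about 1 in 20 groups by chance. In liver HF-low-low, replicate 2 was high for Col1a2 (-1.63, group median -3.24) and Col3a1 (-2.08, group median -3.87). Replicate 3 of the same group was low for Col18a1 (1.29, group median 2.03), Col11a1 (-1.62, group median -0.39) and Bmp1 (0.59, group median 1.31). In liver HF-low-suf, replicate 1 was high for Col5a3 (0.97, group median -0.49) and Serpinh1 (-1.69, group median -3.27), the liver that also held the highest adipocyte marker level. Replicate 3 of that group was high for Loxl3 (1.11, group median 0.29).

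In colon HF-low-low, replicate 1 was high for Col16a1 (1.91, group median 1.09) and Fn1 (-0.70, group median -1.54) and low for Col4a6 (0.020, group median 0.30). In colon HF-low-suf, replicate 2 was low for Col27a1 (-1.37, group median -0.13), Fn1 (-2.04, group median -1.14) and Lamb3 (1.01, group median 1.65).

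The diet difference of Loxl3 was 0.01 in colon and 0.85 in liver. The difference between tissues of -0.83 ± 0.27 passed the unadjusted threshold, as 1.25% of all probes did, and not the adjusted one (unadjusted P = 0.00549, adjusted P = 0.569, limma), on a probe well above background on 1 of 12 arrays in each tissue.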

How the results depend on the processing

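Of the 20 tissue calls, between 16 and 20 were kept under each alternative, and no collagen was called for diet in colon or in liver under any run. Col4a3 was lost most often, also with other background corrections, and turned sign with the Feature Extraction signals (0.16) and the Cy3 channel alone (0.031). With the mean of all probes of a gene, Col4a6 turned to 0.51, Col13a1, Col2a1, Col4a3, Lair1 and Lama3 were lost, 3 collagens stayed higher in liver, the fibrillar median was 0.25 and its difference from type IV was -0.049. With median centring, Col4a3, Col4a6, Col9a2, Plod1 and Lair1 were lost, 3 collagens were higher in liver and the type IV median was 0.47. With the Feature Extraction signals, where the median of all probes moved to 0.19, the fibrillar median was 2.09, the type IV median 0.77 and their difference 1.32, and Col20a1, Col4a5, Col7a1 and Col8a2 were gained. With bright probes only, the type IV median was 0.59.

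Leaving out 1 mouse at a time gave 18 to 21 tissue calls, with 14 to 14 higher in colon and 4 to 7 higher in liver, 0 to 0 diet calls in colon and in liver, and 0 to 1 for the diet difference between tissues. The 1 was Col17a1, without HF-low-low replicate 4 or 5 or HF-low-suf replicate 4. The fibrillar median ranged from 0.84 to 1.11, the type IV median from 0.21 to 0.28 and their difference from 0.61 to 0.84. Col9a2 was lost without HF-low-low replicate 1, 3 or 4 or HF-low-suf replicate 1 or 3, Col27a1 was gained without HF-low-suf replicate 1 and Col19a1 without HF-low-suf replicate 6.

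Without the mouse as a replicate block, with the slide as a replicate block and with the mouse as a fixed block, 20 collagens were called between tissues, and 0 for diet in either tissue with the slide as a block. The block changed no call of a collagen. Of the single-gene tissue values, 666 kept direction and side, 22 fell below the threshold, 9 passed it and 3 turned sign. Of the single-gene diet values, 160 kept both. The other 2 were the lowest and highest values of Col17a1 between tissues over the runs with 1 mouse left out. They were counted as passing the threshold because the Col17a1 runs named above did. Over all 12 mice 10 of 10 chain pairs passed, and within sets of mice 5 of 14 relations did. The causes were not tested. Signal over background limits the 12 genes bright in neither tissue.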
